A study of Mus musculus with 63 samples.

Results

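The 9 genes described here, Mbp, Mog, Mag, Mobp, Cnp, Cldn11, Mal, Ermn and Opalin, encode proteins of the central myelin sheath, the wrapping of membrane that oligodendrocytes lay around axons. They were chosen by symbol from the 55291 gene symbols of the count files, and all 9 were present, with 72 to 46606 counts in a library and none at 0 in any of the 63 libraries. Myelin is a compacted stack of lipid-rich membrane that insulates axons and speeds conduction. In oligodendrocytes the precursor cell leaves the cycle, switches on the myelin regulatory factor (Myrf) together with SOX10 and OLIG factors, and then makes large amounts of myelin mRNA, part of which is carried out along the cell processes and translated next to the growing sheath. In the hippocampus, myelinated fibers run in the alveus, the fimbria, the stratum lacunosum-moleculare and the perforant path, the projection from the entorhinal cortex that an entorhinal cortex lesion cuts.

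The study used entorhino-hippocampal tissue cultures, slices of mouse brain taken at postnatal day 3 to 5 and kept for at least 18 days in vitro, from C57BL/6J mice (wildtype, Synpo+/+) and from mice that lack synaptopodin (B6.129-Synpotm1Mndl/Dllr, Synpo-/-), of either sex. In the regional experiment the dentate gyrus (DG) or the CA3 area was cut out of a single culture for each library, from non-lesioned control cultures or after transection of the entorhinal cortex (ECL). It held 2 control and 3 ECL libraries of Synpo+/+ CA3, 4 control and 7 ECL libraries of Synpo+/+ DG, 6 control and 6 ECL libraries of Synpo-/- CA3, and 7 control and 4 ECL libraries of Synpo-/- DG. In the co-immunoprecipitation experiment (coIP), 6 cultures per lysate were homogenized with cycloheximide, which holds ribosomes on mRNA, and RNA pulled down with an antibody against synaptopodin was sequenced beside an aliquot of the same lysate (input), from 5 control and 5 lesioned Synpo+/+ lysates and 2 synaptopodin-deficient lysates whose labels give no lesion. Regional ECL tissue was taken 3 days after the lesion. The labels state no time, and that of the lesioned coIP lysates is not given in the sources used here. The labels also do not tie the CA3 and DG libraries to the same culture.

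Among the members, Mbp (chr18:82475146-82585637, plus strand, GRCm38) and Mobp (chr9:120149707-120181484, plus strand) encode the small basic proteins that hold the cytoplasmic faces of compact myelin together. Mal (chr2:127633226-127656695, minus strand) encodes a proteolipid that sorts membrane to the sheath. Cldn11 (chr3:31149920-31164324, plus strand) forms the tight junctions between the layers of myelin. Mag (chr7:30899176-30914873, minus strand) faces the axon at the innermost layer, and Mog (chr17:37010743-37023398, minus strand) lies on the outermost surface and is a known autoantigen. Cnp (chr11:100574904-100591729, plus strand), a cyclic nucleotide phosphodiesterase, keeps cytoplasmic channels in the sheath open. Ermn (chr2:58045113-58052864, minus strand) binds the actin cytoskeleton of mature oligodendrocytes, and Opalin (chr19:41061710-41077113, minus strand) is a membrane glycoprotein of the paranodal loops. Reads were counted without strand, and 12.7% of the exon bases of Cnp are shared with Dnajc7, 6.52% of those of Ermn with Galnt5 and 1.15% of those of Mobp with Gm38642, so that reads there cannot be assigned with certainty.

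Total counts ran from 14055930 to 46043990 in the 39 regional libraries and from 11601154 to 53682143 in the 24 coIP experiment libraries, so even the scarcest member, Mag, was counted at least 72 times. Levels below are CPM, counts scaled to the library size, with that size corrected by TMM scaling within each experiment, and are not compared between the experiments. Fold changes come from edgeR's quasi-likelihood test over all genes, and a gene is called at a Benjamini-Hochberg adjusted p under 0.05. Synpo itself did not check the genotype labels: it lay between 30.5 and 69.3 CPM in the Synpo-/- regional libraries and between 19.1 and 38.4 CPM in the Synpo+/+ ones, so the genotypes rest on the labels alone. In the library labelled Synpo+/+ DG ECL replicate 5, Prox1, a transcription factor of granule cells, was at 15.5 CPM, the level of CA3 libraries, against 170 to 217 CPM in the other 6 libraries of its group. That library held the highest level of every member in its group, and the tests between groups that it enters are given with and without it.

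Since the members moved together across libraries, the sequence before their start sites was read for motifs of factors known for myelin genes. RefSeq (GRCm38.p6) gave the 250 bases before the start for 8 of the 9 members, all but Mbp. Mag has 3 start sites in that table, so that the 8 members have 10 promoter entries, and a member is counted where any of its starts holds the motif. The SOX core CTTTGT or its reverse ACAAAG stood before 4 of the 8 (Mag, Mobp, Cnp and Opalin), in 5 of the 10 entries, and in 16.5% of all 32851 promoter entries. A core of the MYRF site, CTGGCAC or CTGGTAC on either strand, stood before 3 of the 8 (Mag, Cnp and Mog), in 4 of the 10 entries, and in 5.93% of all entries. Of the 3 starts of Mag, 2 held both cores and the other held neither. The entries of those 2 starts overlap and hold the same site of each core, so each site enters the counts of entries 2 times. No member held CAGCTG, an E-box that 13% of all promoters held, or TATAAA, which 7.59% held. A match is a description of the letters and not a binding site. The stretches below, each of 150 bases and 5′ to 3′ on the strand of the gene, show the 6 SOX cores before Mobp (chr9:120149492-120149641, plus strand), the MYRF core before Mog (chr17:37023399-37023548, minus strand) and the SOX core before Opalin (chr19:41077164-41077313, minus strand), with the cores in capitals.
Mobp: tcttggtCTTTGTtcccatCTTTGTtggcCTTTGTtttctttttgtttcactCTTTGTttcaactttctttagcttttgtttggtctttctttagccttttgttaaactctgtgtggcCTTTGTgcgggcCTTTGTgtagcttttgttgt
Mog: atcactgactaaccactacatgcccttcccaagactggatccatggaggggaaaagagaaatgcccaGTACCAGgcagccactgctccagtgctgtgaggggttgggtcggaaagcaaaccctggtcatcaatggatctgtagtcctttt
Opalin: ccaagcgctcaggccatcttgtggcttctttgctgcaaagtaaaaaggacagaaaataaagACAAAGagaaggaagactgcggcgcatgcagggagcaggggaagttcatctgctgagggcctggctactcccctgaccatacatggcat

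Per kilobase of exon, the order of the members was much the same in the regional groups. The length is that of all annotated exon blocks of a gene, 13 for Mbp, and the transcripts in use were not determined. The order depends on that length: in Synpo-/- CA3 control libraries mean CPM was 296 for Mbp, 234 for Mobp and 193 for Mal. Mal led in all 4 CA3 groups and in both DG control groups, Cldn11 led in both DG ECL groups, and Opalin, Ermn and Mag were the 3 lowest in 7 of the 8 groups. In Synpo-/- CA3 control libraries the mean level ranged from 69.4 CPM per kilobase for Mal to 3.85 for Mag, and in Synpo-/- DG control libraries from 28 for Mal to 1.29 for Mag. Neighbours in this order were often closer than their spread: the coefficient of variation over libraries was 16% to 31.3% across members in the first of these groups and 18.8% to 47.6% in the second. In whole-culture input RNA from Synpo+/+ controls the order differed, with Cnp highest at 91.8 CPM per kilobase and Ermn lowest at 9.88.

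**Figure D1:**
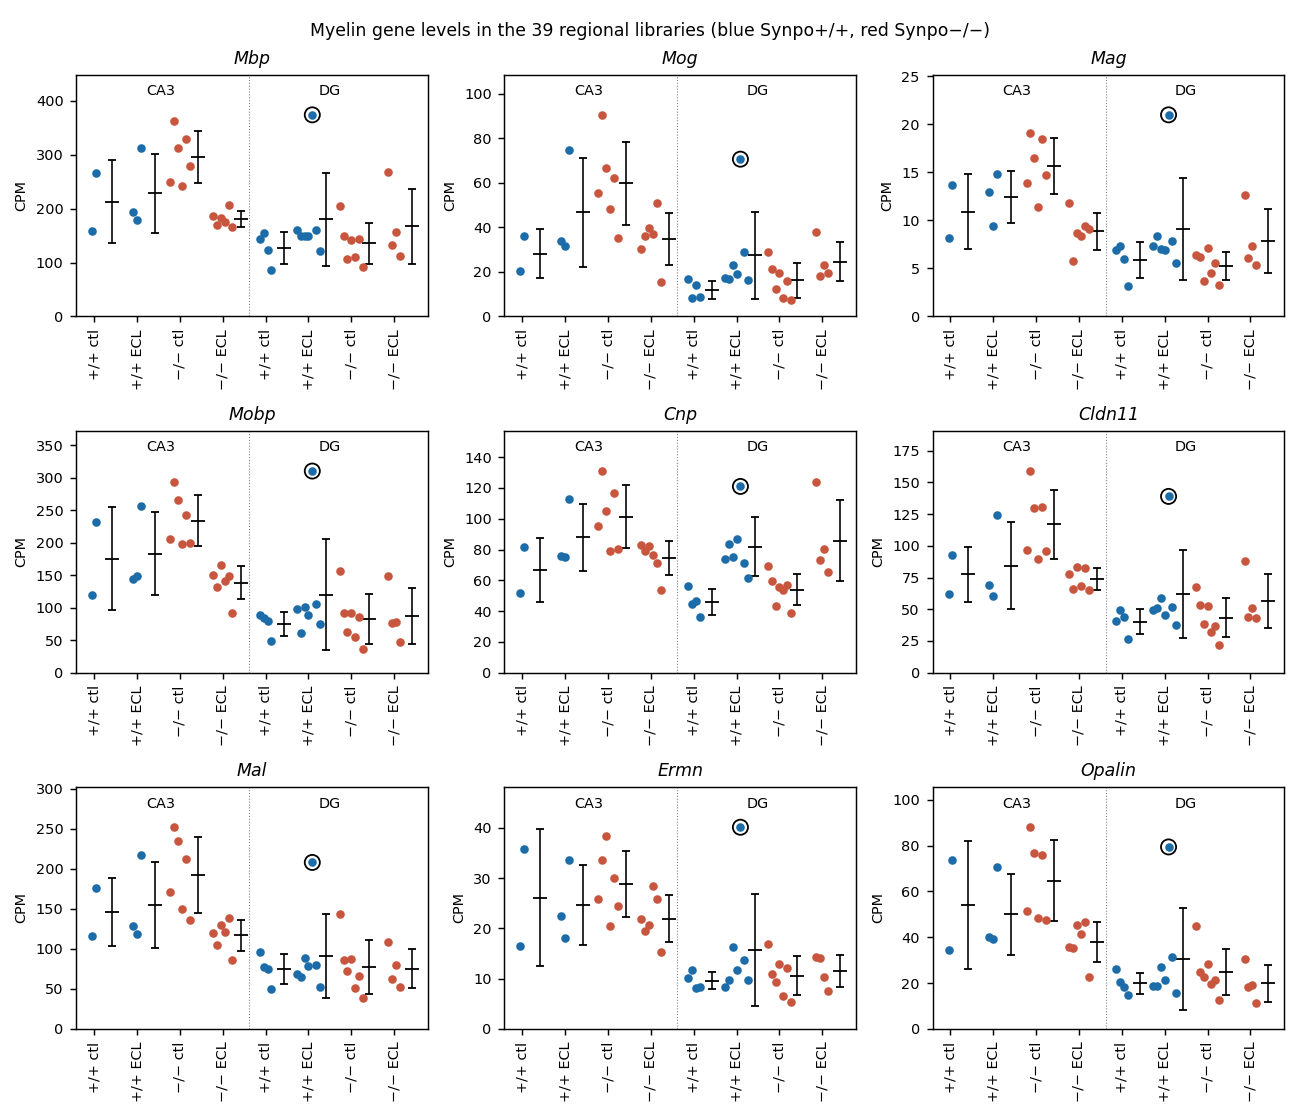
Levels of the 9 myelin genes (CPM, linear axes from 0) in the 39 regional libraries, CA3 on the left and DG on the right of each panel, with Synpo+/+ in blue and Synpo-/- in red, ctl for control and ECL for lesioned cultures; points are libraries and bars are means ± SD. Control DG points lie low against control CA3 points in each panel, Synpo-/- CA3 points drop with the lesion, and the circled library (Synpo+/+ DG ECL replicate 5) stands above its group, at 374 CPM for Mbp.

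The comparison of DG with CA3 in non-lesioned cultures asks how the members differ between the subfields. All 9 were lower in the DG than in CA3 in Synpo-/- cultures, by 1.75-fold (Cnp) to 3.39-fold (Mog), and 6 of the 9 were lower in Synpo+/+ cultures, by 1.9-fold (Cldn11) to 2.7-fold (Opalin). Genes called lower in the DG made up 12.5% of all genes tested in Synpo-/- and 2.75% in Synpo+/+ (25.5% and 5.39% in either direction), and the median log2 fold change of the 9 members was -1.32 and -0.95 against 0.05 and 0.02 over all genes tested. In bulk tissue, fewer oligodendrocytes in the cut-out piece and less myelin RNA per cell cannot be told apart.

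In Synpo-/- control cultures, Mbp ran from 242 to 363 CPM (median 296) in the 6 CA3 libraries and from 90.8 to 205 CPM (median 142) in the 7 DG libraries. The ranges did not overlap, and the log2 fold change was -1.02 (SE 0.151, adjusted p 4.63e-05). Mog ran from 35.3 to 90.5 CPM (median 58.9) in CA3 and from 7.2 to 28.9 CPM (median 16) in the DG. Every DG library again lay below every CA3 library, with a log2 fold change of -1.76 (SE 0.267, adjusted p 5.94e-05), and Mog showed the greatest fold among the members. Mag was scarcer, at 11.4 to 19.1 CPM (median 15.6) in CA3 and 3.3 to 7.15 CPM (median 5.52) in the DG (log2 fold change -1.46, SE 0.17, adjusted p 2.69e-06). Cnp had the smallest fold, with 79 to 131 CPM (median 100) in CA3 and 38.8 to 69 CPM (median 55.5) in the DG (log2 fold change -0.80, SE 0.13, adjusted p 0.000116). Mal was the member whose groups overlapped, since the highest DG library reached 143 CPM and the lowest CA3 library 136 CPM (log2 fold change -1.20, SE 0.227, adjusted p 0.0006). The other members, Mobp, Cldn11, Ermn and Opalin, had log2 fold changes from -1.27 to -1.39 without overlap, and over all genes tested 6.98% had every DG library below every CA3 library. All 9 calls remained when any of the 13 libraries was left out. Markers of other cells differed between the same pieces, and their part in these values was not tested. Summed neuron markers ran from 7795 to 9669 CPM in CA3 and from 3983 to 5932 CPM in the DG (5 of 10 called lower in the DG, median log2 fold change -0.40), and 7 of 8 markers of CA3 pyramidal cells were lower and 9 of 9 of granule cells higher. Summed astrocyte markers ran from 5932 to 6958 CPM in CA3 and from 4764 to 5630 CPM in the DG (4 of 8 lower, median -0.19), and microglia markers from 796 to 1641 and from 636 to 1308 CPM (2 of 11 lower, median -0.35).

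In Synpo+/+ control cultures, with 2 CA3 and 4 DG libraries, Opalin was at 34.4 and 73.7 CPM in CA3 and at 25.9, 20.6, 18.1 and 14.6 CPM in the DG (log2 fold change -1.43, SE 0.25, adjusted p 0.00324). Ermn was at 16.5 and 35.7 CPM in CA3 and at 10.2, 11.7, 8.13 and 8.33 CPM in the DG (log2 fold change -1.43, SE 0.248, adjusted p 0.00317). Every DG library lay below both CA3 libraries, which lay far apart from each other. Mog (-1.22), Mobp (-1.21), Mal (-0.95) and Cldn11 (-0.93) were also called, while Mbp (-0.74, SE 0.219, adjusted p 0.072), Mag (-0.89, SE 0.296, adjusted p 0.113) and Cnp (-0.52, SE 0.189, adjusted p 0.152) did not pass. Groups did not overlap for any member but Cnp, where 13.7% of all genes tested had both CA3 libraries above every DG library. Without Synpo+/+ CA3 control replicate 2 none of the 9 was called (Ermn -0.78, adjusted p 0.153), and without the other CA3 library, replicate 1, 8 were (all but Mag). Either fit leaves 1 CA3 library, which is assumed to vary like the DG libraries. Cldn11 was lost without DG control replicate 1 and Mbp gained without DG control replicate 2. With all groups in one fit, Ermn and Opalin alone were called. Summed neuron markers were at 7057 to 7552 CPM in CA3 and 3944 to 4809 CPM in the DG (4 of 10 called lower in the DG, median log2 fold change -0.46), while none of the astrocyte or microglia markers was called (medians -0.15 and -0.20). Their part in these values was not tested.

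The same comparison was made after the lesion. In Synpo-/- ECL cultures Ermn (-0.92, SE 0.196, adjusted p 0.00514), Opalin (-0.92, SE 0.234, adjusted p 0.0154) and Mal (-0.62, SE 0.18, adjusted p 0.0314) were lower in the DG, by 1.54-fold to 1.9-fold, where 13.6% of all genes were called in either direction and 6.24% lower. Ermn was at 14.2, 14, 10.3 and 7.5 CPM in the 4 DG libraries and from 15.3 to 28.4 CPM (median 21.3) in the 6 CA3 libraries, which did not overlap. Over all genes tested, 5.35% had every DG library below every CA3 library. Cnp was at 124, 73.1, 80.1 and 65.6 CPM in the DG against 53.5 to 82.7 CPM (median 77.7) in CA3, a log2 fold change of 0.22 (SE 0.162, adjusted p 0.459) with wide overlap. The remaining 5 members had log2 fold changes from -0.66 (Mobp, SE 0.24, adjusted p 0.0878) to -0.10 (Mbp, SE 0.185, adjusted p 0.804). Synpo-/- DG ECL replicate 1 was the highest DG library of all 9 members, and without it Mobp and Cldn11 were called as well, making 5; without Synpo-/- CA3 ECL replicate 6 the count was also 5, with Mog and Mobp. Mal was lost without DG ECL replicate 2, 3 or 4 or CA3 ECL replicate 1 or 5. With all groups in one fit none of the 9 was called. In these libraries 6 of 10 neuron markers were lower in the DG (median -0.67), and 7 of 11 microglia and 6 of 8 astrocyte markers were higher (medians 0.64 and 0.53), and their part in these values was not tested.

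In Synpo+/+ ECL cultures none of the members was called between the regions, with log2 fold changes from -0.71 (Mog, SE 0.394, adjusted p 0.336) to -0.04 (Cnp, SE 0.171, adjusted p 0.917), 1 unadjusted p under 0.05 (4698 of the 24029 genes tested) and 0 calls by DESeq2, where 2.05% of all genes were called. Without Synpo+/+ DG ECL replicate 5, 8 of the 9 were lower in the DG (all but Cnp), with log2 fold changes from -0.58 (Mbp, SE 0.142, adjusted p 0.00795) to -1.16 (Mog, SE 0.226, adjusted p 0.0014), and the share of all genes called in either direction was 19.8%. In that fit 7 of 10 neuron markers were lower in the DG (median log2 fold change -0.74). The astrocyte markers called were all higher in the DG (5 of 8, median 0.36), as was 1 of 11 microglia markers (median 0.26). The part of these markers in the values of the members was not tested. Over the other 6 DG libraries Mbp had 148 ± 14.5 CPM and Opalin 22.2 ± 5.93 CPM (SD, n = 6), against 229 ± 73.3 and 50 ± 17.7 CPM in the 3 CA3 libraries (SD, n = 3).

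**Figure D2:**
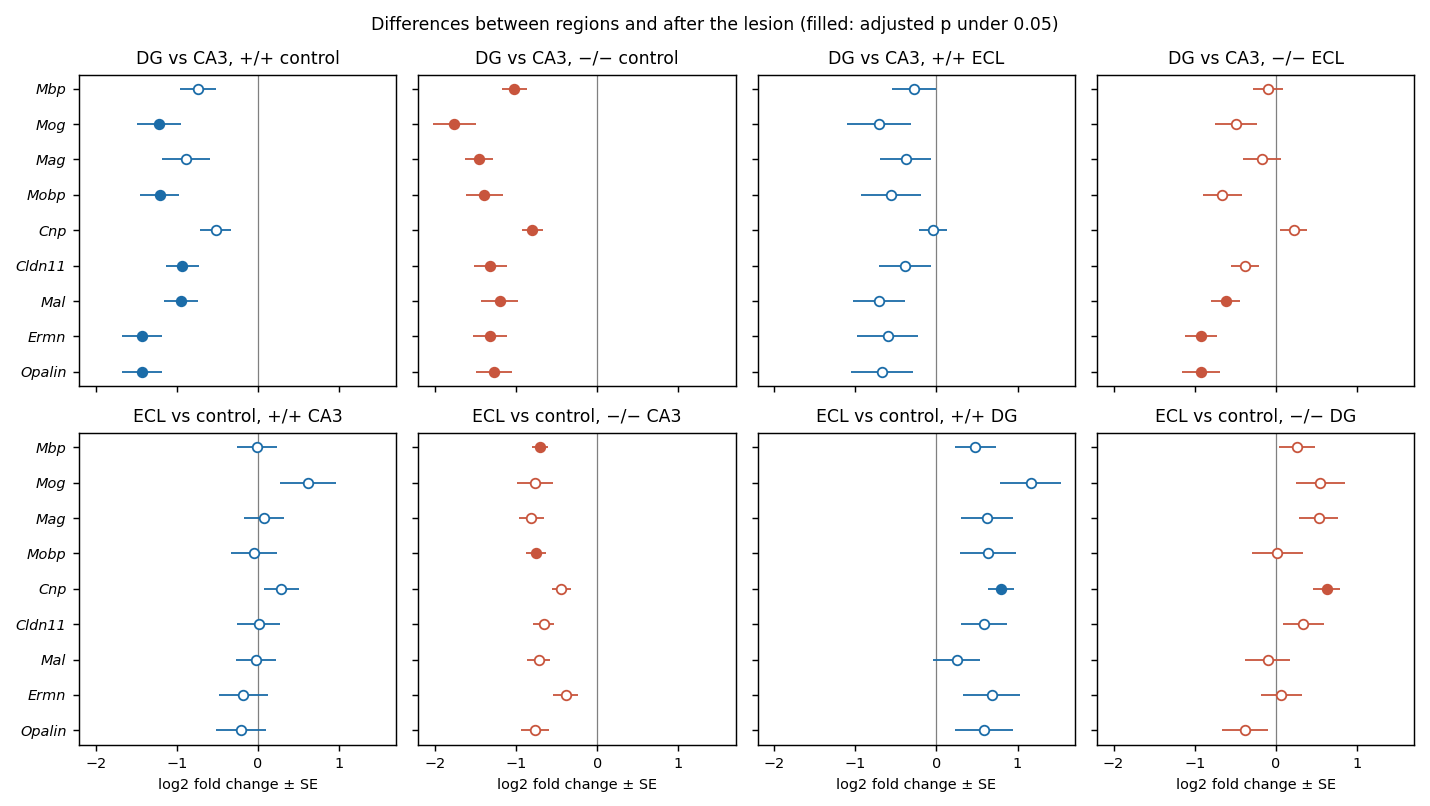
Log2 fold changes (x axis) with their SE for the 9 members (rows), DG against CA3 in the upper panels and ECL against control in the lower ones, Synpo+/+ in blue and Synpo-/- in red; filled points passed an adjusted p under 0.05 by edgeR. All 9 points are filled on the left of 0 for Synpo-/- control cultures, and the CA3 and DG lesion panels of Synpo-/- lie on opposite sides of 0 for 7 of the 9 genes.

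The comparison of lesioned with control cultures asks whether denervation changed the members within a subfield. In Synpo-/- CA3 all 9 members had lower means after ECL, and Mbp and Mobp passed the test, by 1.63-fold and 1.69-fold, in a comparison in which 0.077% of all genes were called in either direction and 0.0241% lower. In the DG, Cnp alone passed, higher by 1.74-fold in Synpo+/+ and by 1.54-fold in Synpo-/-. There 12.2% and 8.53% of all genes were called in either direction and 7.86% and 5.17% higher. Without Synpo+/+ DG ECL replicate 5, Mog passed beside Cnp in Synpo+/+ DG. The call in Synpo-/- DG was lost in some fits with a library left out. In Synpo+/+ CA3 no member was called.

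In Synpo-/- CA3, Mbp ran from 242 to 363 CPM (median 296) in 6 control libraries and from 166 to 206 CPM (median 178) in 6 ECL libraries (log2 fold change -0.70, SE 0.099, adjusted p 0.0108). Mobp ran from 198 to 293 CPM (median 224) and from 92.4 to 166 CPM (median 145) (log2 fold change -0.75, SE 0.125, adjusted p 0.0249). Every ECL library lay below every control library for both genes, as was so for 0.231% of all genes tested. The ranges of Cldn11 and Opalin did not overlap either, but neither passed, with log2 fold changes of -0.66 (SE 0.128, adjusted p 0.0688) and -0.77 (SE 0.172, adjusted p 0.164). Mag was at 11.4 to 19.1 CPM (median 15.6) in controls and 5.81 to 11.8 CPM (median 8.87) after ECL, so that the groups overlapped at 1 end (log2 fold change -0.81, SE 0.153, adjusted p 0.0596). Mog, Mal, Cnp and Ermn had log2 fold changes of -0.77, -0.72, -0.44 and -0.39 with adjusted p from 0.0777 to 0.592. All 9 had an unadjusted p under 0.05, as did 1510 of the 20772 genes tested. Of the members, DESeq2 called 6, and a single fit over all groups called 0. Of the 2 calls, Mbp remained whichever library was left out, and counts ran from 1 (without control replicate 2, 3 or 5, or ECL replicate 2 or 4) to 3 (without control replicate 4 or ECL replicate 1, with Mag, or without control replicate 6, with Mal). The markers of neurons, microglia and astrocytes had median log2 fold changes of -0.01, -0.09 and -0.10 in these libraries, with none of 29 called, and the median summed level of the 9 members was 1091 CPM in controls and 706 CPM after ECL.

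In Synpo+/+ CA3, with 2 control and 3 ECL libraries, the members had log2 fold changes from -0.21 to 0.62 (median -0.01), with adjusted p from 0.307 to 0.992, none with an unadjusted p under 0.05, and 0 calls by DESeq2, where 1.78% of all genes were called. Mog had the highest value, at 20.5 and 36 CPM in the controls and 33.7, 31.7 and 74.8 CPM after ECL (0.62, SE 0.35, adjusted p 0.307). ECL replicate 3 held the highest level of all 9 members among the 5 libraries, apart from Ermn and Opalin, for which control replicate 2 was higher. The lesion effect in CA3 was lower in Synpo-/- than in Synpo+/+ for all 9 members, by -0.24 to -1.43 on the log2 scale (median -0.73). That difference between genotypes passed for none of them (adjusted p 0.173 to 0.754, 7 with an unadjusted p under 0.05, 0 calls by DESeq2). No gene of the 26821 tested passed, and 4589 of these had an unadjusted p under 0.05.

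In Synpo+/+ DG, Cnp was at 56.6, 44.9, 46.7 and 36 CPM in the 4 control libraries and from 61.4 to 121 CPM (median 75.1) in the 7 ECL libraries (log2 fold change 0.80, SE 0.159, adjusted p 0.00641). Every ECL library lay above every control library, as was so for 7.68% of all genes tested. Without ECL replicate 5 the log2 fold change of Cnp was 0.67 (SE 0.12, adjusted p 0.00179). Mog was at 16.7, 8.31, 13.9 and 8.82 CPM in controls and from 16.5 to 70.6 CPM (median 18.9) after ECL, with overlap at the ends (1.16, SE 0.372, adjusted p 0.052). Without ECL replicate 5 it passed, with a smaller log2 fold change (0.72, SE 0.201, adjusted p 0.0271), where 13.8% of all genes were called, and it also passed without ECL replicate 1, 2 or 7, so that 2 members were then called. The other 7 members had log2 fold changes from 0.25 (Mal) to 0.68 (Ermn) with adjusted p from 0.161 to 0.553. Their values rested largely on that library: without it they ran from -0.10 (Mal, SE 0.157, adjusted p 0.693) to 0.25 (Mag and Cldn11).

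In Synpo-/- DG, Cnp was at 38.8 to 69 CPM (median 55.5) in the 7 control libraries and at 124, 73.1, 80.1 and 65.6 CPM in the 4 ECL libraries (log2 fold change 0.63, SE 0.166, adjusted p 0.0266). The groups overlapped at 1 library, and the call was lost without ECL replicate 1 (0.40, SE 0.147, adjusted p 0.15) or control replicate 3, and when the length trend was removed. Mog (0.55, SE 0.304, adjusted p 0.327) and Mag (0.53, SE 0.239, adjusted p 0.209) had the next highest values, Mobp and Ermn were near 0 (0.02 and 0.07), and Mal and Opalin were below it (-0.10 and -0.38, adjusted p 0.898 and 0.498). Opalin was at 12.4 to 44.9 CPM (median 22.5) in controls and at 30.4, 18.4, 19.3 and 11.2 CPM after ECL. The difference between the genotypes in the DG lesion effect passed for no member (median log2 difference -0.39, adjusted p 0.48 to 0.903, 0 with an unadjusted p under 0.05, 0 calls by DESeq2), where 0.00381% of all genes were called. Without Synpo+/+ DG ECL replicate 5 it ran from -0.56 (Opalin) to 0.22 (Mag), with Mbp, Mag and Cldn11 turned in sign (adjusted p 0.62 to 0.991, 0 with an unadjusted p under 0.05).

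Microglia and astrocyte markers moved with the lesion in the same DG libraries, and their part in these values was not tested. All 11 microglia markers and 5 of 8 astrocyte markers were called higher in Synpo+/+ DG, and 9 and 6 in Synpo-/- DG. Over all genes tested, 7.86% and 5.17% were called higher. Without Synpo+/+ DG ECL replicate 5, all 11 microglia and 7 of 8 astrocyte markers were called higher in Synpo+/+ DG. In that fit 13.8% of all genes were called in either direction. Summed microglia markers ran from 523 to 704 CPM in Synpo+/+ DG controls and from 1317 to 1637 CPM after ECL, and from 636 to 1308 and from 1372 to 1832 CPM in Synpo-/- DG. Summed astrocyte markers ran from 4485 to 5191 CPM and from 6792 to 8866 CPM in Synpo+/+ DG, without overlap. Ttr, the transthyretin of choroid plexus, was at 2284 and 6010 CPM in Synpo+/+ DG ECL replicates 1 and 3 and at 8529 CPM in Synpo-/- DG ECL replicate 2. Without each of these the log2 fold change of Cnp was 0.78, 0.82 and 0.71 (adjusted p 0.0105, 0.0125 and 0.0215).

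Whether the lesion effect differed between the regions was tested as an interaction, added after the data were seen. In Synpo-/- cultures the effect was higher in the DG than in CA3 for all 9 members, by 0.37 (Opalin) to 1.32 (Mag) on the log2 scale. Cnp (1.05, SE 0.222, adjusted p 0.0162) and Mag (1.32, SE 0.289, adjusted p 0.0194) passed, where 1.12% of all genes were called in either direction and 0.877% higher, and Mbp (0.94, SE 0.253, adjusted p 0.0623) did not. Both calls were lost without Synpo-/- DG ECL replicate 1 (Mag 1.01, adjusted p 0.0861, and Cnp 0.83, adjusted p 0.056), and without Synpo-/- DG control replicate 1 the count was 4, with Mbp and Cldn11. Without Synpo-/- DG ECL replicate 4 it was 3, with Mbp. In Synpo+/+ cultures the interaction was above 0 for all 9 members (0.23 to 0.82), with adjusted p of 1 for each, none with an unadjusted p under 0.05 and 0 calls by DESeq2, and 0 of 27783 genes passed. Without Synpo+/+ DG ECL replicate 5 it ran from -0.12 (Mal) to 0.38 (Ermn), and again none passed (adjusted p 0.835 to 0.995, 0 with an unadjusted p under 0.05).

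Between the genotypes no member was called in any of the 4 combinations of region and lesion, in which 0.00413% (control CA3), 0.00891% (ECL CA3), 0.0166% (control DG) and 0.0166% (ECL DG) of all genes were called. An unadjusted p under 0.05 was reached by 4, 1, 0 and 0 members. Over all genes tested it was reached by 3959 of 24203, 1383 of 22447, 3746 of 24143 and 859 of 24100. In control CA3 all 9 members had higher means in Synpo-/-, with log2 fold changes from 0.08 (Ermn) to 1.02 (Mog), and in ECL CA3 all 9 had lower means, from -0.43 to -0.12. Mog was at 35.3 to 90.5 CPM (median 58.9) in the 6 Synpo-/- and at 20.5 and 36 CPM in the 2 Synpo+/+ control CA3 libraries (1.02, SE 0.29, adjusted p 0.138). The groups overlapped, and DESeq2 called Mog in control CA3 and no member in the other 3 comparisons. In the DG the log2 fold changes ran from -0.17 to 0.42 in controls and from -0.64 to 0.04 after ECL. Without Synpo+/+ DG ECL replicate 5 the values after ECL ran from -0.19 (Opalin) to 0.26 (Mog), 5 of the 9 turned from below to above 0 (Mbp, Mog, Mag, Cldn11 and Mal), and none was called (adjusted p of 1 for each, 0 with an unadjusted p under 0.05). Over the 4 comparisons the SE of a member was 0.143 to 0.382 on the log2 scale. Differences of several times the SE could also be missed, since Mog in control CA3 (1.02, SE 0.29) did not pass.

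In whole-culture input RNA of Synpo+/+ lysates, no member was called after ECL: log2 fold changes ran from -0.22 (Mal) to 0.20 (Ermn) with adjusted p from 0.622 to 0.975, none with an unadjusted p under 0.05, while 5.61% of all genes were called. In the coIP RNA they ran from -0.33 (Mal) to 0.05 (Ermn) with adjusted p from 0.627 to 0.98, and 0.314% of all genes were called. DESeq2 called no member in either comparison. The SE reached 0.421 for Mag in the input, since lysates differed widely, with Mbp from 197 to 1237 CPM over the 5 control inputs.

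The comparison of coIP with input asks which members were held in the RNA pulled down with synaptopodin relative to the lysate it came from. Mbp and Mobp were above the input in all 10 Synpo+/+ lysates and Mag in 9 of 10, with median ratios of coIP to input in control lysates of 1.86, 1.71 and 1.83. Ermn, Opalin, Mog, Cldn11 and Mal were below the input in all 10, with median ratios in control lysates from 0.544 (Opalin) to 0.772 (Mal). Cnp was above it in 2 of 10 (median ratio 0.997 in controls and 0.833 in lesioned lysates). Separation of coIP from input was common: over all genes tested, the groups did not overlap for 39% in control and 41.3% in lesioned lysates. The share of all genes on the same side in all 10 lysates was not counted. Of the members, Mbp, Mobp and Mag have the greatest lengths over all annotated exons (8469, 6849 and 4072 bases), and the other 6 have 1704 to 3639 bases. The lengths of the transcripts in use were not determined.

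**Figure D3:**
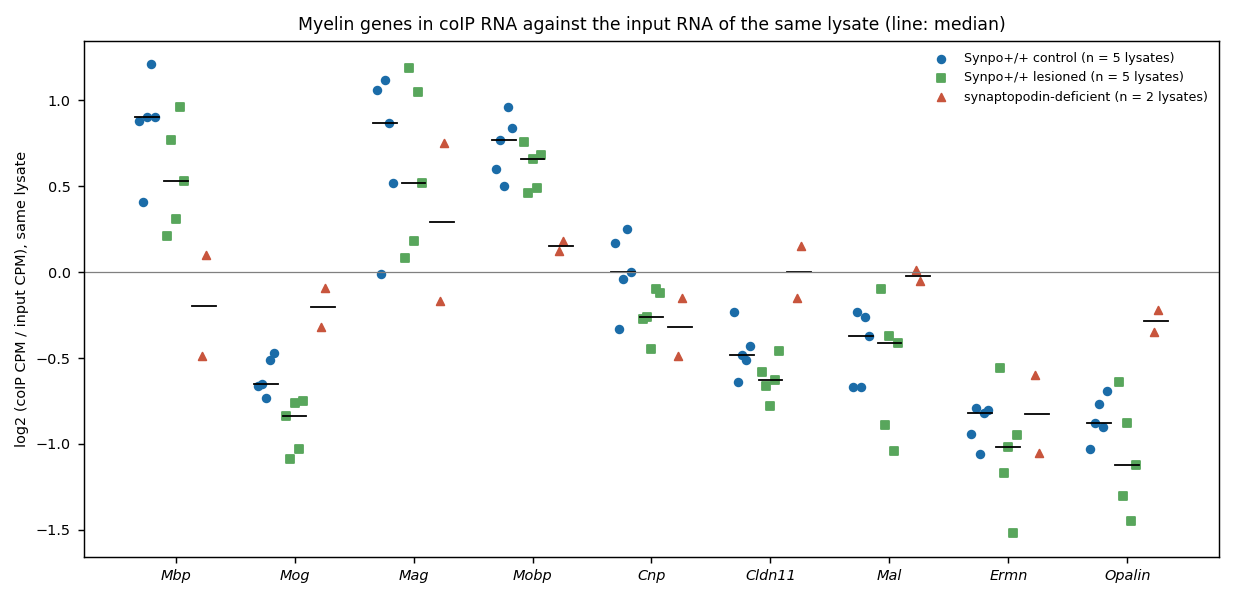
Log2 of the ratio of coIP CPM to input CPM of the same lysate (y axis) for the 9 members (x axis), with Synpo+/+ control lysates as circles, Synpo+/+ lesioned lysates as squares and synaptopodin-deficient lysates as triangles; lines are medians and 0 means equal levels. All Synpo+/+ points of Mbp and Mobp lie above 0, those of Mog, Cldn11, Mal, Ermn and Opalin lie below it, and the 2 synaptopodin-deficient points lie on both sides of 0 for Mbp, Mag, Cldn11 and Mal.

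Ermn was at 25.6, 27.7, 42.4, 44.2 and 39.6 CPM in the inputs of control lysates 1 to 5 and at 13.4, 16.1, 20.3, 25.1 and 22.7 CPM in their coIP samples. The groups did not overlap (log2 fold change -0.86, SE 0.188, adjusted p 0.00129), where 55% of all genes were called in either direction and 25.5% lower. In 19.7% of all genes tested every coIP sample lay below every input. Opalin was at 22.3, 19.9, 44.3, 42.2 and 38 CPM in the inputs and at 10.9, 10.8, 26, 22.6 and 23.5 CPM in the coIP samples, and was also called (-0.82, SE 0.278, adjusted p 0.0214). Mbp was at 197, 415, 785, 917 and 1237 CPM in the inputs and at 361, 550, 1467, 2124 and 2301 CPM in the coIP samples of the same lysates (0.96, SE 0.494, adjusted p 0.114). Lysates 1 and 2 held less myelin RNA than the other 3 in both fractions, which set the spread of Mbp between lysates above the step within each of them.

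Input and coIP samples come from the same lysate, and with the lysate as a replicate block 8 of the 9 members were called in control lysates, 3 higher and 5 lower, where 62.5% of all genes were called. Mbp then had a log2 fold change of 0.88 (SE 0.0885, adjusted p 1.63e-07), Mobp 0.75 (SE 0.076, adjusted p 1.63e-07) and Mag 0.73 (SE 0.122, adjusted p 5.15e-05). The lower members ran from -0.42 (Mal, adjusted p 0.000249) and -0.44 (Cldn11, adjusted p 6.39e-05) to -0.59 (Mog, adjusted p 1.67e-06), -0.83 (Opalin, adjusted p 3.99e-07) and -0.86 (Ermn, adjusted p 1.93e-07). Cnp did not pass (0.03, SE 0.0806, adjusted p 0.766). When the trend of fold change with gene length was removed together with the block, 7 of these remained, Mbp at 0.45 (SE 0.0951, adjusted p 0.000468), and Cldn11 was lost (-0.09, adjusted p 0.361). Without lysates 1 and 2, a setting chosen after seeing the data, the same 8 were called with and without the block. Without the block, the count of 2 fell to 1 (Ermn) without the input of lysate 3 or 4, and rose to 4, with Mbp and Mobp, without the coIP sample of lysate 1. It was 3 without the input of lysate 1 or the coIP sample of lysate 4 (with Mal), or the coIP sample of lysate 2 (with Mobp).

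In lesioned Synpo+/+ lysates the log2 fold changes of the members had the same sign as in control lysates, apart from Cnp (0.04 in control and -0.22 in lesioned lysates). Ermn was at 25.1, 43.4, 48.3, 42.9 and 48 CPM in the inputs and at 17.1, 19.3, 23.9, 14.9 and 24.9 CPM in the coIP samples (-1.04, SE 0.184, adjusted p 0.00028), with no overlap. In 20.3% of all genes tested every coIP sample lay below every input. Opalin fell by 1.09 on the log2 scale (SE 0.316, adjusted p 0.00873), and Mog missed the threshold (-0.86, SE 0.354, adjusted p 0.0501). Mbp was at 452, 502, 1099, 830 and 799 CPM in the inputs and at 525, 854, 1364, 1617 and 1155 CPM in the coIP samples (0.61, SE 0.286, adjusted p 0.0824). The share of all genes called was 58.3%, and 27.8% were lower. With the replicate block all 9 members were called, 3 higher and 6 lower, where 62.4% of all genes were called: Mbp 0.58 (adjusted p 0.00131), Mobp 0.63 (adjusted p 6.64e-05), Mag 0.62 (adjusted p 0.00524) and Cnp -0.22 (adjusted p 0.0406). With the length trend removed as well, 5 remained (Mog, Mag, Mal, Ermn and Opalin), and Mbp was at 0.10 (SE 0.109, adjusted p 0.47) and Mobp at 0.26 (adjusted p 0.058). Without the block, the count of 2 rose to 5 without the input of lysate 1 and to 4 without the input of lysate 2 or the coIP sample of lysate 1 or 5. It was 3 without the input of lysate 3 (with Mbp) or 5 (with Mobp) or the coIP sample of lysate 2 (with Mobp) or 3 (with Mog). The step from input to coIP differed between lesioned and control lysates for no member (log2 -0.32 to -0.05, adjusted p of 1 for each, none with an unadjusted p under 0.05).

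In the 2 synaptopodin-deficient lysates Ermn was again lower in the coIP, at 29.6 and 41.4 CPM in the inputs and 19.6 and 20 CPM in the coIP samples of lysates 1 and 2 (-0.88, SE 0.177, adjusted p 0.00319), where 31.4% of all genes were called in either direction and 16.4% lower. It was the only member called, also with the replicate block (35.8% of all genes called). Mbp was at 1008 and 707 CPM in the inputs and at 718 and 757 CPM in the coIP samples of lysates 1 and 2 (-0.25, SE 0.164, adjusted p 0.266), and its ratio within a lysate was 0.712 and 1.07. Mobp (0.11, SE 0.167) and Mag (0.29, SE 0.19) were above 0 without passing (adjusted p 0.633 and 0.264), Mobp turning to -0.15 when the length trend was removed. With that trend removed and the replicate block, Mbp (-0.58, adjusted p 0.00239), Cnp and Ermn were called. The count changed with the library left out, to 0 without the input of lysate 2, to 2 without the coIP sample of lysate 1 (Mag and Ermn) and to 3 without that of lysate 2 (Mog, Cnp and Ermn). Each of these fits leaves 1 sample in an arm, which is assumed to vary like the other arm. Without a lesion label, and with libraries deeper than the Synpo+/+ ones (at least 42886994 counts), the genotype and the experiment of these lysates cannot be told apart.

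Direct tests of the step from input to coIP between the genotypes called no member (log2 -1.16 for Mbp to 0.55 for Opalin, adjusted p 0.827 to 0.988, none with an unadjusted p under 0.05, 0 calls by DESeq2), and no gene of the 20621 tested passed. With the replicate block Mbp passed, at -1.06 (SE 0.182, adjusted p 0.0282), and no other member did. That fit rests on 2 synaptopodin-deficient lysates, and the share of all genes called in it is not given here. Mbp has the greatest exon length of the members (8469 bases). This difference was not tested with the block and the length trend removed together.

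Other genes of the myelin program were read from lists of symbols, of which 38 or 39 of the 39 myelin genes and 14 or 15 of the 15 precursor genes passed the filter in the comparisons below. Genes called lower in the DG than in CA3 made up 2.75% of all genes tested in Synpo+/+ and 12.5% in Synpo-/- control cultures. Of 39 further myelin and mature oligodendrocyte genes, 12 and 24 were lower in the DG, and 0 were higher. Among them were Aspa, which splits N-acetylaspartate (-1.50 and -1.51), Gsn, gelsolin (-1.15 and -0.93) and Klk6, a secreted protease (-1.86 and -1.58). Myrf was lower in Synpo-/- (-1.16, adjusted p 0.000704). The median log2 fold change of the list was -0.65 and -0.68. The 15 genes of precursors and immature oligodendrocytes had medians of -0.11 and 0.01, with 0 calls in Synpo+/+ and 1 in Synpo-/- (Rassf10, 1.18).

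Genes called higher after the lesion made up 7.86% of all genes tested in Synpo+/+ DG and 5.17% in Synpo-/- DG. Of the 39, 12 and 10 were higher there, and 0 were lower. They included Bcas1, of newly myelinating oligodendrocytes (1.22 and 1.32), Car2, a carbonic anhydrase (0.86 and 0.83), Gsn (0.93 and 1.03) and Cd9, a tetraspanin (0.96 and 0.80). Some of these genes, Cd9 and Gsn among them, are also expressed by other cells. Of the 15 precursor genes 4 and 5 were higher, with Gpr17, a receptor of immature oligodendrocytes, at 1.32 and 1.59. Of 9 genes listed as transcription factors 3 were higher in both genotypes, Olig1 (0.87 and 0.77), Olig2 (0.60 and 0.53) and Carhsp1 (0.74 and 0.58). Carhsp1, though in that list, is known as an RNA-binding protein. Synpo+/+ DG was also read without ECL replicate 5, a setting added after the data were seen. Then 13 of the 38 tested, 5 precursor genes and the same 3 genes of the transcription factor list were higher. In that fit 13.8% of all genes were called in either direction. In Synpo-/- CA3 only Tspan2, a tetraspanin of myelin, was called among the 39 (-0.72, adjusted p 0.0249), with a list median of -0.26. None of the precursor genes or transcription factors was called, and 0.0241% of all genes were called lower.

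**Figure D4:**
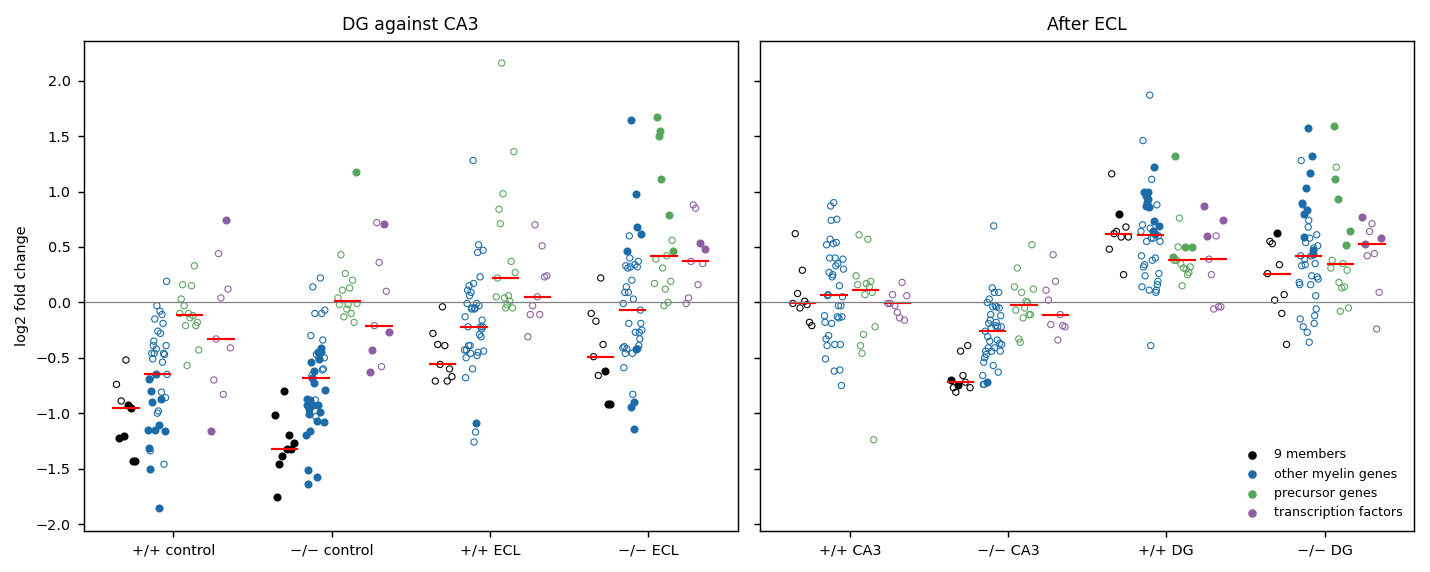
Log2 fold changes (y axis) of the 9 members (black), 39 other myelin genes (blue), 15 precursor genes (green) and 9 genes listed as transcription factors (purple) in the regional comparisons, DG against CA3 on the left and ECL against control on the right. Each point is a gene tested, filled where called, and red lines are list medians. In control cultures the members and the other myelin genes lie below 0 and the precursor genes around it, and after ECL in the DG the precursor genes and transcription factors lie above it.

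In the coIP, 6 of the 39 were higher and 5 lower than input in control lysates, 7 and 9 in lesioned lysates and 5 and 5 in synaptopodin-deficient lysates, where 55%, 58.3% and 31.4% of all genes were called in either direction. Aatk, a kinase, was higher in all 3 (1.45, 1.61 and 0.94) and Car2 lower in all 3 (-0.57, -0.75 and -0.49). Of the markers of Schwann cells, the glia that make peripheral myelin, Pmp2 reached at most 0.138 CPM and was at 0 in 48 of the 63 libraries, while Cdh19 was present at 6.33 to 21.2 CPM.

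The 9 members varied together from library to library. Over the 39 regional libraries, after each group's mean was removed from log2 CPM, the 36 pairs of members had Pearson's r from 0.688 to 0.959 (median 0.876) and Spearman's rho from 0.634 to 0.946, each with a permutation p of at most 0.0001 for r and 0.00019 for rho (100000 permutations within groups, the smallest possible p being 1e-05; at most the same values after Benjamini-Hochberg adjustment over the 36 pairs). Without the 2 libraries farthest from the median r was 0.646 to 0.936, within Synpo+/+ 0.77 to 0.97, within Synpo-/- 0.595 to 0.955, and without Synpo+/+ DG ECL replicate 5 0.572 to 0.942. CA3 and DG libraries of the same culture, if any, would not be independent.

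Among 11500 genes with a mean of at least 5 CPM, those whose level followed the mean of the members closely over the same 39 libraries included Tspan2 (r = 0.93), Septin4 (0.914), Pdlim2 (0.898), Tmem88b (0.854), Aspa (0.832), Gjc3 (0.819), Ugt8a (0.806), Adssl1 (0.791) and Aldh1a1 (0.776). Pdlim2, Adssl1 and Aldh1a1 are not in the list of other myelin genes, and the others named are. The libraries share depth and dissection, and the correlations are a description.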

How the data were processed

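RNA was sequenced from 39 libraries of cut-out CA3 or DG tissue and 24 coIP or input libraries of mouse tissue cultures. Per the submitters' processing notes and the study's methods, adapters were removed with cutadapt 3.5, and STAR 2.7.8a (alignment to mm10) and featureCounts 2.0.1 (unstranded counting over GENCODE exons) followed. The values the authors deposited are these counts per gene symbol, not normalized. Counts without molecular identifiers include PCR copies, so that replicate spread and not counting error was used.

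Samples were grouped by their labels. Each comparison was fitted over all genes with edgeR 4.0.16 in R 4.3.3 (TMM, filterByExpr, quasi-likelihood test, Benjamini-Hochberg adjustment), with only the groups compared in the fit. SE is the log2 fold change divided by the square root of F. Means with ± are SD over libraries. No pair of replicates was close enough to be a single library counted again (chi-square per degree of freedom at least 7.49). Which cultures came from the same animal is not given in the sources used here, so p-values measure the spread between these samples. The 9 members, the gene lists and the comparisons were chosen with earlier results of these data known. All members are named. Genes of the other lists are named as examples among those called, and from the 10 most alike by r; results for some genes of these lists are not reported here. Alternatives were RLE size factors, DESeq2 1.42.0, keeping genes of any count, a mean normalized count over 300, all groups of an experiment in one fit, removal of the gene length trend (lowess, span 0.3, over genes with a mean count over 50), the replicate number as a block, and each library left out in turn. Fits without lysates 1 and 2, the length trend and the gene lists without Synpo+/+ DG ECL replicate 5, and the region interactions were added after the data were seen. Call counts under alternatives mostly carry no share of all genes called. It is given for coIP against input with the block and for fits without Synpo+/+ DG ECL replicate 5.

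Input and coIP samples of a number were taken to share a lysate. Of the inputs, 5 of 5 in control and 4 of 5 in lesioned lysates correlated best with the coIP sample of their own number. Deviations from group means correlated with r from 0.304 to 0.64 in control pairs and from 0.155 to 0.625 in lesioned pairs. In synaptopodin-deficient pairs r was 0.0867. With 2 synaptopodin-deficient lysates the deviations mirror each other, so that value checks the pairing little. The synaptopodin-deficient labels hold a pair of numberings that cross, and pairs follow the preparation number. Simulated data with 200 genes changed 4-fold were used to check the fits between groups. Over 23 fits (17866 to 25810 genes) 143 to 198 were called, with 3 to 17 unchanged genes. Libraries were drawn independently, without a lysate effect, and 4-fold is above the folds of the members. The recovery of smaller changes is therefore not shown.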

Additional observations from a re-analysis of the deposited data

Results flagged for a closer look

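Synpo+/+ DG ECL replicate 5 stood far above the other 6 libraries of its group for all 9 members, with 374 CPM for Mbp (121 to 161 in the others), 70.6 for Mog (16.5 to 28.7), 21 for Mag (5.58 to 8.34), 310 for Mobp (60.5 to 105), 121 for Cnp (61.4 to 86.8), 139 for Cldn11 (37.6 to 59.1), 208 for Mal (52 to 88.5), 40.1 for Ermn (8.35 to 16.2) and 79.4 for Opalin (15.7 to 31.5). Its summed granule cell markers were at 116 CPM, within the range of CA3 libraries (108 to 217 CPM in Synpo-/- CA3), and the group median was 638 CPM. What this library holds was not tested further. Ermn in the input of lesioned Synpo+/+ lysate 1 (25.1 CPM) lay below the other 4 inputs (42.9 to 48.3 CPM). Of 90 combinations of member and group examined for such distance, 10 stood out. All but that of Ermn in the input came from Synpo+/+ DG ECL replicate 5. Chance gives about 1 in 20 for a single combination. The members vary together, so the combinations are not independent and the count cannot be set against that rate.

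The lesion effect differed between the DG and CA3 of Synpo-/- cultures for Mag, by 1.32 on the log2 scale, and for Cnp, by 1.05, in a test of the difference itself that was added after the data were seen. Neither passed without Synpo-/- DG ECL replicate 1 (Mag 1.01, adjusted p 0.0861, and Cnp 0.83, adjusted p 0.056, by edgeR).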

How the results depend on the processing

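Of 795 member values under other settings, 14 changed sign, and of 1107 with a library left out, 32 did, counted over the comparisons with a member called and the values named beside them. The count of members called moved as follows. Without a filter on low counts it was 1 after ECL in Synpo+/+ CA3, 2 in Synpo+/+ DG and 7 in Synpo-/- CA3, 3 between genotypes in control CA3, 5 and 6 in control and lesioned Synpo+/+ coIP, 2 in synaptopodin-deficient coIP and 1 for the genotype difference in coIP. With DESeq2 it was 6 after ECL in Synpo-/- CA3, 1 between genotypes in control CA3, 2 in synaptopodin-deficient coIP and 4 for the region difference in Synpo-/-, and that last count was 1 over a mean normalized count of 300. With all groups in one fit it was 2 after ECL in Synpo+/+ DG, 0 in Synpo-/- CA3, and 2 and 0 between the regions in Synpo+/+ control and Synpo-/- ECL cultures. With the length trend removed it was 1 and 0 after ECL in Synpo-/- CA3 and DG, 5 between the regions in Synpo-/- ECL cultures and 3 in synaptopodin-deficient coIP, and, without Synpo+/+ DG ECL replicate 5, 2 after ECL in Synpo+/+ DG and 8 between the regions in Synpo+/+ ECL cultures. With the replicate block the regional counts were 2 after ECL in Synpo+/+ DG, 6 and 0 in Synpo-/- CA3 and DG, 2 and 8 between the regions in Synpo+/+ control and ECL cultures, 6 in Synpo-/- ECL cultures and 5 between genotypes in control CA3. Whether regional numbers pair libraries is not settled (r -0.349 to 0.433 over the regional comparisons). Between DG and CA3 of Synpo-/- control cultures r was 0.0675 to 0.433. There, 3 of 6 CA3 libraries correlated best with the DG library of their own number. In coIP the block gave 8 and 9 in control and lesioned lysates, 7 and 5 with the length trend also removed (3 in synaptopodin-deficient lysates), and 8 and 8 without lysates 1 and 2 (8 and 7 without the block), and it gave 1 for the genotype difference. The block changed no other call count beyond 1.5 times.

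With a library left out, counts ran from 1 to 2 after ECL in Synpo+/+ DG, 1 to 3 in Synpo-/- CA3, 0 to 1 in Synpo-/- DG, 0 to 8 between the regions in Synpo+/+ control and in ECL cultures, 2 to 5 in Synpo-/- ECL cultures, 1 to 4, 2 to 5 and 0 to 3 in control, lesioned and synaptopodin-deficient coIP, and 0 to 4 for the region difference in Synpo-/-. The cause of these shifts was not tested.

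Log2 fold changes that turned sign were, after ECL in Synpo+/+ DG, Mal with the block (-0.03) and with the length trend removed without replicate 5 (-0.19). After ECL in Synpo-/- DG they were Mobp with DESeq2 (-0.00), RLE factors (-0.01), the length trend removed (-0.02) and the block (-0.32), Ermn with the length trend removed (-0.02) and the block (-0.19), and Cldn11 with the block (-0.00). In synaptopodin-deficient coIP they were Cldn11 with one fit (0.01), the length trend removed (0.12) and also the block (0.11), and Mobp with the length trend removed, without and with the block (-0.15 and -0.15). With a library left out, ranges crossing 0 were Mal -0.10 to 0.41 after ECL in Synpo+/+ DG, Mbp -0.06 to 0.42, Mobp -0.35 to 0.25, Mal -0.32 to 0.12 and Ermn -0.05 to 0.24 in Synpo-/- DG, Mbp -0.58 to 0.00 and Cnp -0.18 to 0.17 between the regions in Synpo+/+ ECL cultures, Mbp -0.42 to 0.05 and Cnp -0.01 to 0.32 in Synpo-/- ECL cultures, Cnp -0.13 to 0.19 in control coIP, and Mbp -0.47 to 0.04, Mog -0.50 to 0.00, Mag -0.08 to 0.58, Mobp -0.08 to 0.34, Cldn11 -0.20 to 0.13 and Mal -0.15 to 0.06 in synaptopodin-deficient coIP.

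Over all genes tested, the median log2 value went from 0.03 to -0.13 once the length trend was taken out between the regions in Synpo-/- ECL cultures and from 0.02 to -0.09 and -0.10 in lesioned and synaptopodin-deficient coIP. It moved the split of higher and lower calls from 1864 and 1022 to 1303 and 1223 after ECL in Synpo+/+ DG, from 676 and 706 to 573 and 1110, from 2797 and 2670 to 2077 and 3336 and from 1678 and 1420 to 1014 and 2468 between the regions in Synpo+/+ control, Synpo-/- control and Synpo-/- ECL cultures, and from 3138 and 3429 to 2000 and 4081 in synaptopodin-deficient coIP. The 2 Synpo+/+ CA3 control libraries limit every comparison they enter.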
